A study of Rattus norvegicus with 32 samples.

Results

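Mitochondrial DNA carries genes for a small set of proteins that sit at the core of the respiratory chain, and neurons draw much of their ATP from that chain. Both strands of this circular genome are transcribed into long precursors, which are cut into single mRNAs, largely by release of the tRNAs that lie between the genes. Nearly all of its protein mRNAs come from the heavy-strand precursor, and Mt-nd6 is the one protein gene transcribed in the opposite sense.

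The genes described here are 10 of the 23822 genes in the tables, chosen by their Ensembl identifiers as rat mitochondrial DNA protein genes. They encode subunits of complex I, which takes electrons from NADH (Mt-nd1, ENSRNOG00000030644, Mt-nd2, ENSRNOG00000031033, Mt-nd3, ENSRNOG00000033615, Mt-nd4, ENSRNOG00000029707, Mt-nd5, ENSRNOG00000029971, and Mt-nd6, ENSRNOG00000029042), of complex III (Mt-cyb, the cytochrome b gene, ENSRNOG00000031766) and of complex IV, the terminal oxidase (Mt-co1, ENSRNOG00000034234, Mt-co2, ENSRNOG00000030371, and Mt-co3, ENSRNOG00000030700). All 10 were found and all 10 passed the filter on low counts in every comparison. The other protein genes and the rRNA genes of mitochondrial DNA had no identifier with a symbol in the sources used here and are not analysed by name, and no coordinates of mitochondrial genes were used.

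Hippocampal RNA was sequenced from 32 rats on a Crl:CD(SD) background, carrying the R237H mutation of the astrocyte intermediate filament gene Gfap on one allele (Gfap+/R237H, R237H rats, a model of Alexander disease) or being WT littermates (Gfap+/+). Postnatal days 21 (P21) and 56 (P56) were sampled in each sex. Libraries were made from poly(A) RNA of whole dissected hippocampus, so the values mix all cell types, and fewer cells of a type cannot be told apart from less RNA per cell. Each group by genotype, sex and age held 4 rats, except that at P21 there were 5 R237H females and 3 WT females. The mutation is a knock-in carried by every cell, and rats are numbered here within each group. Gfap itself lay between 3120 and 6988 CPM in R237H rats (counts per library size, in the usual CPM unit, with TMM normalization, as for all CPM values below) and between 493 and 1082 in WT rats, so every rat matched its genotype label.

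Library totals ran from 21580397 to 55544871 expected counts, with a median of 46157271. The 2 libraries under 30000000 were R237H male 4 at P56 and R237H male 3 at P21. With totals of this size every member other than Mt-nd6 was deeply counted in every rat, and the number of rats limits the precision. P-values of the genotype comparisons weigh a difference against the spread between these rats.

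The first question was how much of each library the members took up. At P56 they held a smaller share of the R237H libraries than of the WT libraries in both sexes, and at P21 the shares of the genotypes overlapped. In R237H males at P56 the 10 genes took 6.26%, 7.59%, 7.40% and 6.51% of all expected counts. In WT males at P56 they took 10.1%, 9.59%, 19.7% and 12.8%. Every R237H male lay below every WT male, and WT male 3 stood well above the other WT males.

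The female libraries at P56 gave the same order of means with 1 exception among the rats. The shares were 11.98%, 6.54%, 6.97% and 6.09% in R237H females and 12.3%, 13.5%, 11.8% and 12.2% in WT females. R237H female 1 lay within the WT range, and the other 3 R237H females lay below all WT females. Group means were 6.94% ± 0.655 (SD, n = 4) against 13.1% ± 4.67 (n = 4) in males, and 7.90% ± 2.75 (n = 4) against 12.5% ± 0.751 (n = 4) in females. The WT mean was thus 1.88 times the R237H mean in males and 1.58 times in females.

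At P21 no separation was seen. R237H males held 11.2%, 9.96%, 10.99% and 10.2%, and WT males held 11.1%, 10.5%, 10.8% and 10.5%. R237H females held 8.78%, 13.9%, 9.54%, 9.74% and 13.2%, and WT females held 10.7%, 9.93% and 11.2%. The R237H females at P21 spread over a wider range than the WT females on both sides, with rats 2 and 5 above and rats 1, 3 and 4 below all of them.

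**Figure D1:**
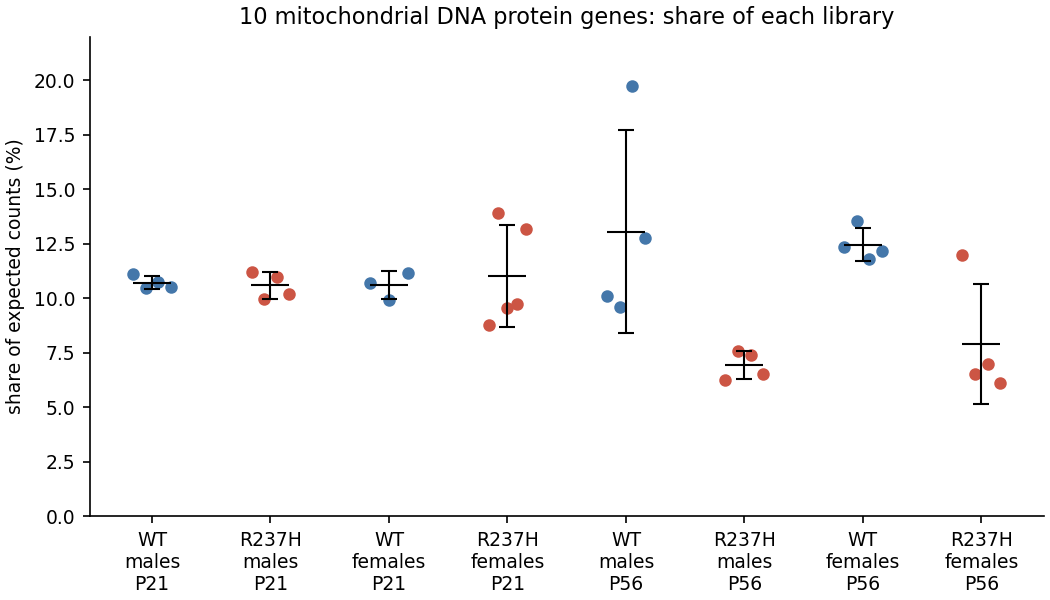
Share of each library's expected counts (%, y axis) held by the 10 mitochondrial DNA protein genes, for the 8 groups of rats (x axis), with 1 point a rat and bars for the mean ± SD. At P56 the R237H males (6.26% to 7.59%) lie below all WT males (9.59% to 19.7%), R237H female 1 (11.98%) lies among the WT females, and at P21 the genotypes overlap.

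Ordered by mean share, the groups ran from WT males at P56 and WT females at P56 through R237H females at P21 (11.04% ± 2.35, n = 5), WT males at P21 (10.7% ± 0.295, n = 4), WT females at P21 (10.6% ± 0.629, n = 3) and R237H males at P21 (10.6% ± 0.608, n = 4) down to R237H females and R237H males at P56. Each pair of neighbours in this order differed by less than the larger of its SDs. No test was made on the share, since it is a sum over chosen genes.

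Single genes were compared by levels per length, as transcript levels in TPM. Mt-co3, a core subunit of complex IV, was the most abundant member, with a mean of 41550 TPM over the 32 rats, and ranked 2 among all genes. Mt-co1, the catalytic subunit of complex IV, averaged 36890 TPM and ranked 4, and Mt-co2, which receives electrons from cytochrome c, averaged 33840 TPM and ranked 5. The complex IV genes thus stood above the other members, and the lower of them, Mt-co2, exceeded Mt-nd2 in the overall means.

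Among the genes of complexes I and III the means were 22310 TPM for Mt-nd2, 21340 TPM for Mt-nd1, 21190 TPM for Mt-cyb, 14660 TPM for Mt-nd4, 13670 TPM for Mt-nd3 and 5354 TPM for Mt-nd5. The means of Mt-nd2, Mt-nd1 and Mt-cyb differed by less than their spread over rats, and so did those of Mt-nd4 and Mt-nd3. Mt-nd6 averaged only 144 TPM and ranked 793. The mature Mt-nd6 mRNA is known to carry little or no poly(A) tail and these libraries were poly(A) selected, so its level is not comparable with the rest, and its coding sequence meets that of Mt-nd5 on the other strand, with the strand setting of the counting not given in the sources used here. Nuclear copies of mitochondrial DNA share sequence with all members, and reads could be split between them.

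**Figure D2:**
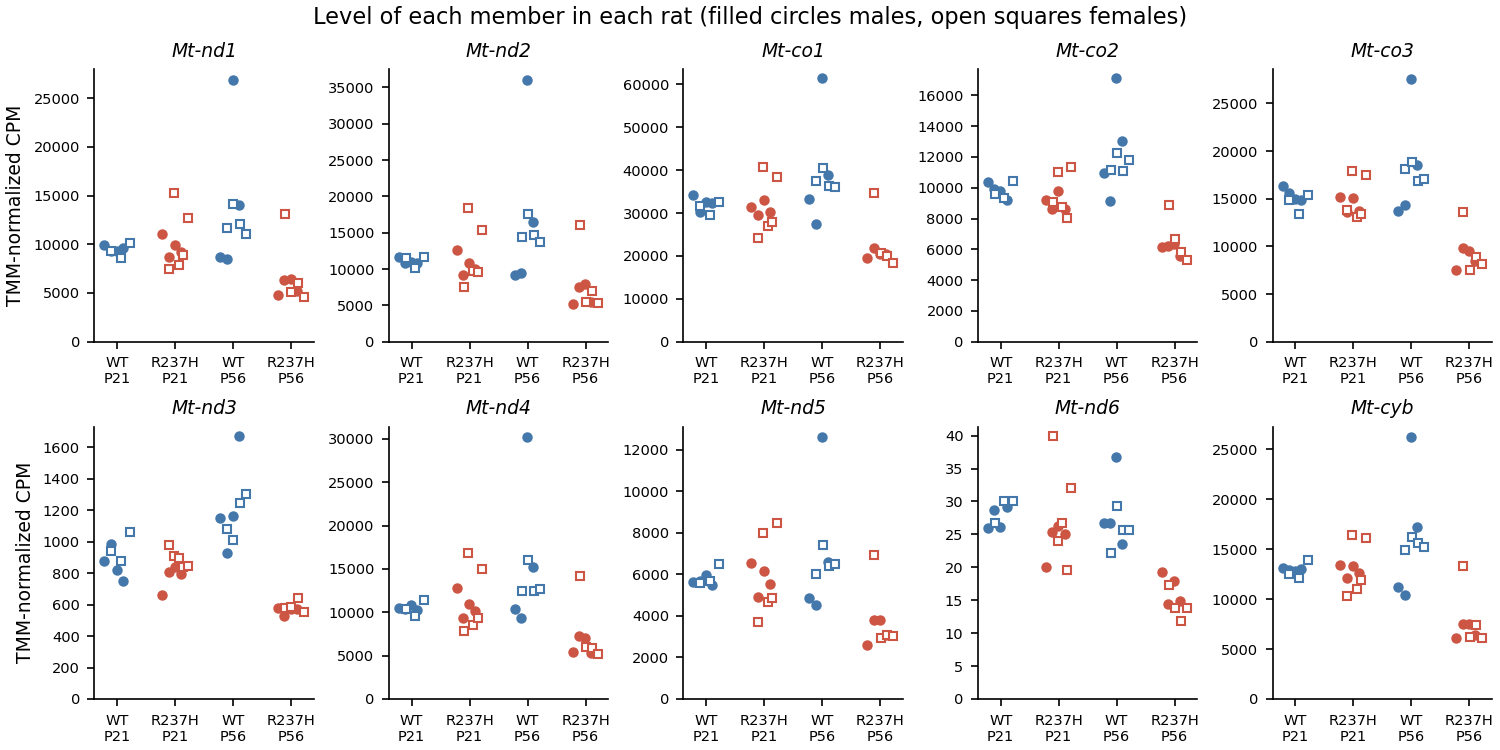
Level of each member (CPM, y axis starting at 0, own scale per gene) in each of the 32 rats, grouped by genotype and age (x axis), with filled circles for males and open squares for females. Mt-nd3, Mt-nd6, Mt-co2 and Mt-co3 of R237H rats lie below all WT rats at P56. For the other members R237H female 1 lies among the WT rats of both sexes.

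R237H was then compared with WT in males at P56, with edgeR over 15097 genes and a false discovery rate (FDR) under 0.01 as the threshold. Here 8 of the 10 members were lower in R237H males and none was higher, where 11.1% of all genes tested were lower and 16.8% higher. The 2 that did not pass were Mt-nd2 (FDR = 0.0173) and Mt-nd5 (FDR = 0.0161). In CPM all 10 had every R237H male below every WT male, which held for 19.0% of all genes. Wholly above lay 23.0% of genes and no member. In TPM Mt-nd3 and Mt-nd6 overlapped between the genotypes in males. The median log2 fold change of the members was -1.09, and that of all genes was -0.01. With limma on log2(TPM + 0.1) none of the 10 was called in males and 8 had an unadjusted p under 0.05, with a median log2 fold change of -0.57 for the members and 0.40 for all genes.

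Mt-nd3, a small subunit of complex I, had the smallest FDR in males. Its CPM were 576, 526, 570 and 570 in R237H males and 1151, 929, 1163 and 1675 in WT males. In CPM the R237H males were close together and far below the lowest WT male, and the log2 fold change was -1.10 (SE 0.15, FDR = 0.000352). Its mean in TPM fell from 16090 ± 3434 in WT males to 10850 ± 780 in R237H males. In TPM the genotypes overlapped, with 11490 to 18920 in WT males and 10280 to 11970 in R237H males. For this short gene RSEM's effective length is small, between 0.0671 and 0.0914 of that of Mt-co1 over the libraries, and these values overlapped between the groups.

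Mt-co2 had the next smallest FDR. It stood at 6128, 6244, 6349 and 5596 in R237H males and at 10976, 9119, 17102 and 13033 in WT males, in CPM. The log2 fold change was -1.02 (SE 0.17, FDR = 0.000912). Mt-co3 (-1.04, FDR = 0.00288) and Mt-co1 (-0.95, FDR = 0.00494) of the same complex were lower by similar amounts.

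For Mt-cyb of complex III, the R237H males held 6057, 7501, 7466 and 6390 CPM. The WT males held 11215, 10424, 26263 and 17262, with rat 3 highest. The log2 fold change was -1.22 (SE 0.26, FDR = 0.00413). Mt-nd4, part of the proton-pumping arm of complex I, showed the same shape, with 5387, 7316, 7027 and 5264 in R237H males against 10425, 9392, 30187 and 15221 in WT males (log2 fold change -1.36, SE 0.33, FDR = 0.00855). Mt-nd1 passed near the threshold (-1.32, FDR = 0.00978), and the log2 fold changes of Mt-nd2 and Mt-nd5, also in the membrane arm, were -1.42 (SE 0.40) and -1.08 (SE 0.30).

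Mt-nd6, the light-strand transcript, was also lower. The values were 19.2, 14.4, 17.9 and 14.9 CPM in R237H males and 26.7, 26.7, 36.7 and 23.5 in WT males, without overlap. In TPM the genotypes did overlap, at 103.2 to 137.4 in R237H males and 108.4 to 167.7 in WT males. The log2 fold change of Mt-nd6, -0.75 (SE 0.16, FDR = 0.00416), was the smallest of the 10 in males.

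WT male 3 set the size of several male folds. Without it 8 members were again lower at an FDR under 0.01, but Mt-nd2 moved from -1.42 to -0.81, Mt-nd1 from -1.32 to -0.84 and Mt-nd4 from -1.36 to -0.87 on the log2 scale, while Mt-nd3 stood at -1.13. The count of members called fell to 3, 3, 4 or 2 when R237H male 1, 2, 3 or 4 was left out, and was 8, 10, 8 or 6 when WT male 1, 2, 3 or 4 was left out.

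In females at P56, 5 of the 10 members were lower in R237H rats and none was higher, beside 11.1% of all genes tested that were lower and 17.0% that were higher. These were Mt-nd3, Mt-nd6, Mt-co2, Mt-co3 and Mt-cyb. In CPM, all R237H females lay below all WT females in 6 members, these and Mt-co1, beside 18.1% of all genes. No member lay wholly above (22.6% of genes). The median log2 fold change was -0.83 for the members and -0.03 for all genes. With limma on log2(TPM + 0.1) 1 member was called in females, and the medians were -0.62 and 0.26.

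Mt-nd3 again had the smallest FDR. R237H females held 576, 588, 644 and 550 CPM and WT females 1084, 1009, 1249 and 1300.5, for a log2 fold change of -0.99 (SE 0.11, FDR = 4.8e-05). The genotypes were well apart, and R237H female 1 was not set off from the other R237H females for this gene.

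Mt-nd6 came second, with 17.4, 13.8, 11.8 and 13.8 CPM in R237H females and 22.1, 29.2, 25.7 and 25.7 in WT females. The log2 fold change was -0.87 (SE 0.14, FDR = 0.00054). Rat 1 was the highest R237H female, but lay below every WT female.

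The remaining heavy-strand members were shaped by R237H female 1. For Mt-nd4 the R237H females held 14243, 5949.5, 5893 and 5152 CPM, and the WT females 12513, 16009, 12417 and 12720. Rat 1 exceeded 3 of the 4 WT females while the other R237H rats stood far below them. With all 4 R237H females kept, Mt-nd4 (log2 fold change -0.79, FDR = 0.0512), Mt-nd1 (-0.78, FDR = 0.0540) and Mt-nd2 (-0.85, FDR = 0.0545) did not pass. Neither did Mt-nd5 (-0.73, FDR = 0.0436) or Mt-co1 (-0.70, FDR = 0.0132).

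For Mt-co2 the R237H females held 8900, 6645, 5803 and 5302 CPM and the WT females 11123, 12267, 11064 and 11784 (log2 fold change -0.81, FDR = 0.00185). Mt-co3 (-0.91, FDR = 0.00202) and Mt-cyb (-0.92, FDR = 0.00846) were lower as well. Without R237H female 1 all 10 members were lower at an FDR under 0.01, with Mt-nd2 at -1.34, Mt-nd4 at -1.24, Mt-nd1 at -1.22 and Mt-nd3 at -0.96.

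**Figure D3:**
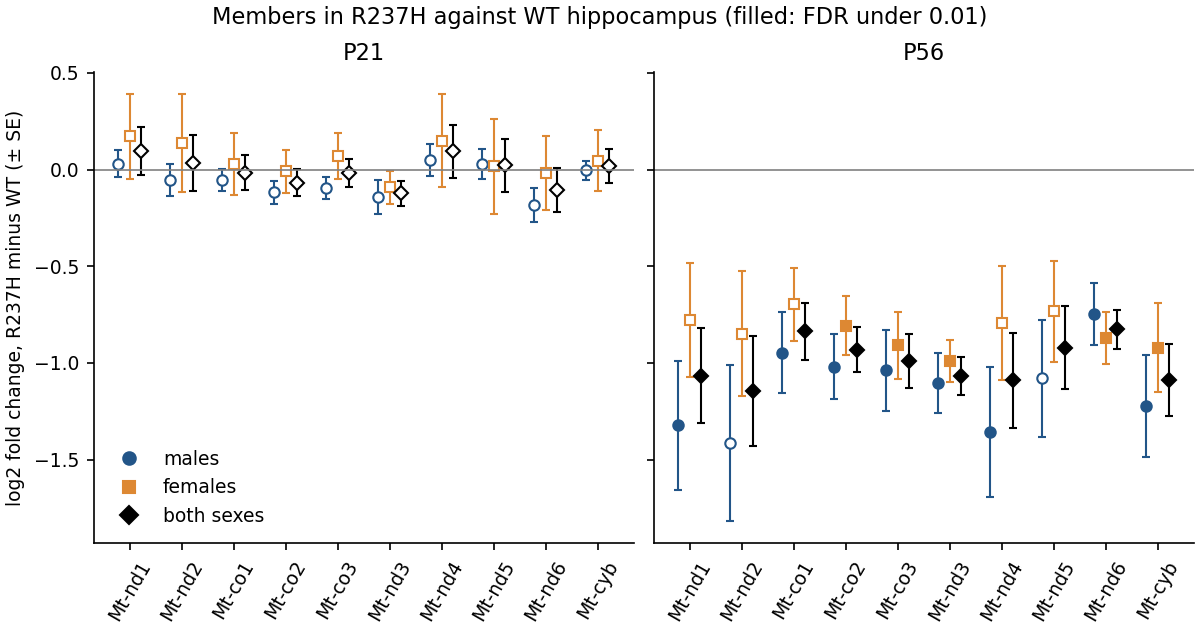
Log2 fold change of each member, R237H minus WT (y axis, ± SE), at P21 (left) and P56 (right) for males (circles), females (squares) and both sexes (diamonds), with filled symbols where the FDR was under 0.01. At P56 all symbols lie between -1.42 and -0.70, and at P21 all lie near 0 with none filled.

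With both sexes at P56 in one model with sex as a term (8 R237H and 8 WT rats), all 10 members were lower in R237H rats, beside 23.5% of 15419 genes tested that were lower and 24.7% that were higher. All 8 R237H rats lay below all 8 WT rats in CPM in 4 members, Mt-nd3, Mt-nd6, Mt-co2 and Mt-co3 (11.4% of all genes). No member lay wholly above (16.7%). In TPM Mt-co2 and Mt-co3 kept this separation, and Mt-nd3 and Mt-nd6 did not. The log2 fold changes lay between -1.14 for Mt-nd2 (SE 0.28, FDR = 0.0021) and -0.82 for Mt-nd6 (SE 0.10, FDR = 1.87e-06). Mt-nd3 had the smallest FDR, 6.92e-08, at -1.07 (SE 0.10).

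The order of the FDR values followed the spread between rats more than the size of the fold. Mt-nd2, Mt-nd4 and Mt-nd1 had SEs between 0.25 and 0.28 against 0.10 for Mt-nd3 and Mt-nd6. Leaving out both WT male 3 and R237H female 1, a choice made after the values were seen, left all 10 members lower, with log2 fold changes from -1.06 for Mt-nd2 to -0.77 for Mt-nd6.

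Males and females were compared by a test of the difference between their folds. With edgeR 0 members passed for genotype by sex at P56 or at P21, 0 had an unadjusted p under 0.05, and DESeq2, the likelihood-ratio test and limma called 0, while no gene at all passed in edgeR (0.0%). The median of the members' differences at P56, males minus females, was -0.31 on the log2 scale with all rats and 0.32 without WT male 3 and R237H female 1, so that these 2 rats decided its sign.

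At P21 none of the 10 members passed in males (4.82% of all genes were lower and 12.4% higher), in females (0.753% and 7.06%) or in both sexes together (7.25% and 15.2%). With edgeR 0 members had an unadjusted p under 0.05 in any of the 3 comparisons, and DESeq2, the likelihood-ratio test and limma called 0 members too. In CPM, no member had all R237H rats below all WT rats, against 13.7% of genes in males, 7.37% in females and 3.03% in both sexes. No member lay wholly above either, against 16.9%, 14.1% and 9.75% of genes. In TPM all R237H males lay below all WT males for Mt-co2 and Mt-co3. The values were 32010 to 35280 against 35580 to 38120 for Mt-co2, and 41610 to 44220 against 45260 to 48480 for Mt-co3. The share of all genes was not taken in TPM.

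Mt-nd3, which had the smallest FDR at P56, shows the scale of the P21 values. In males it stood at 664, 808, 837 and 793 CPM in R237H rats and at 880, 983, 820 and 749 in WT rats. R237H females held 978, 909, 897, 841 and 843, and WT females 944, 877 and 1059. The genotypes overlapped in both sexes, and over both sexes the log2 fold change was -0.12 (SE 0.06, FDR = 0.161).

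Mt-nd6 at P21 stood at 20.001, 25.4, 26.3 and 25.03 CPM in R237H males and at 26.0, 28.6, 26.1 and 29.1 in WT males. R237H females ranged from 19.5 to 40.0 around the WT females, which held 26.7, 30.1 and 30.1. Over both sexes the log2 fold change was -0.10 (SE 0.11, FDR = 0.527). The other members had log2 fold changes between -0.07 (Mt-co2, SE 0.07) and 0.10 (Mt-nd1, SE 0.12), and the median of the 10 was 0.00.

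The ages were compared by the genotype effect at P56 minus that at P21 in a model of all 32 rats. Of the 10 members, 9 were lower at an FDR under 0.01, beside 9.11% of 15735 genes tested that were lower and 11.0% that were higher. The differences were -1.17 for Mt-nd4 and Mt-nd2, -1.15 for Mt-nd1, -1.09 for Mt-cyb, -0.96 for Mt-co3, -0.93 for Mt-nd3, -0.85 for Mt-co2, -0.81 for Mt-co1 and -0.71 for Mt-nd6. Mt-nd3 had the smallest FDR, 1.41e-06 (SE 0.12). Mt-nd5 stood at -0.93 and did not pass (SE 0.28, FDR = 0.0113). With limma on log2(TPM + 0.1) 4 of the 10 were called for the difference between ages.

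In WT rats the level of Mt-nd3 was higher at P56 (1230 ± 316 CPM in males, 1160 ± 137 in females) than at P21 (858 ± 99.0 and 960 ± 92.1), and in R237H rats it was lower at P56 (561 ± 23.0 and 590 ± 39.7) than at P21 (775 ± 76.5 and 894 ± 56.2). Mt-cyb gave 16290 ± 7316 and 15470 ± 545 in WT males and females at P56 against 12950 ± 121 and 12850 ± 912 at P21. In R237H rats Mt-cyb stood at 6853 ± 740 and 8246 ± 3399 at P56 against 12880 ± 642 and 13160 ± 2938 at P21. Age within a genotype was not tested. The numbers in the rats' titles were not shared between the ages, so age cannot be told apart from whatever those numbers stand for.

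The members did not vary as one block from rat to rat. After the group means were subtracted from log2 levels over the 32 rats, 8 heavy-strand members varied together, with a median correlation with the other members from 0.88 for Mt-co2 to 0.97 for Mt-nd4, and a highest value of 0.99 between Mt-nd1 and Mt-nd2. Mt-nd3 was set apart, with a median of 0.05 and a highest value of 0.24 (with Mt-co2), and Mt-nd6 had a median of 0.25. These are descriptions over rats that share library scaling, and they carry no test.

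The separation of Mt-nd3 from its neighbours could be seen in single rats. WT male 3 at P56 had 239115 CPM over the heavy-strand members, against 94138 to 141769 in the other WT males, but its 1163 for Mt-nd3 lay between those of the other WT males. R237H female 1 had 121298 against 56604 to 64641 in the other R237H females, and its 576 for Mt-nd3 lay between theirs. In TPM, WT male 3 and R237H female 1 held the lowest Mt-nd3 of their groups, at 11490 and 8515. In the ratio of Mt-nd3 to Mt-nd4, the next member in gene order, both rats stood lowest of their groups, at -4.70 and -4.63 on the log2 scale, while the group means were -3.60 for both groups.

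Agreement between the strands was taken from Mt-nd6 against the sum of the other 9 members. Per 10000 heavy-strand counts there were 2.60 ± 0.541 Mt-nd6 counts in R237H males and 2.15 ± 0.650 in WT males at P56, and 1.99 ± 0.452 in R237H females and 1.96 ± 0.150 in WT females. At P21 the values were 2.32 ± 0.377 and 2.54 ± 0.210 in males and 2.74 ± 1.20 and 2.74 ± 0.272 in females, R237H first. All of these differences between genotypes were smaller than the SD of at least 1 of the groups compared, so both strands were lower in R237H rats at P56 by amounts that the spread does not tell apart.

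Within a genotype and age, the strands did not track each other detectably. Pearson's r was 0.67 in the 8 WT rats at P56 (exact permutation p = 0.1) and 0.29 in the 8 R237H rats at P56 (exact permutation p = 0.51). At P21 it was -0.37 in 7 WT rats (exact permutation p = 0.425) and -0.17 in 9 R237H rats (exact permutation p = 0.667). Spearman's rho was 0.21, 0.14, -0.43 and -0.30 in the same order, with exact permutation p between 0.354 and 0.752. These were 4 relations, and the smallest adjusted p was 0.4.

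The largest of these values rested on single rats. Without the 2 rats farthest from the median heavy-strand level, r was -0.02 in WT rats at P56, 0.02 in R237H rats at P56, -0.69 in WT rats at P21 and -0.63 in R237H rats at P21, with exact permutation p of 0.958, 0.978, 0.125 and 0.124. In TPM the sign at P56 changed, to -0.26 in WT and -0.22 in R237H rats.

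**Figure D4:**
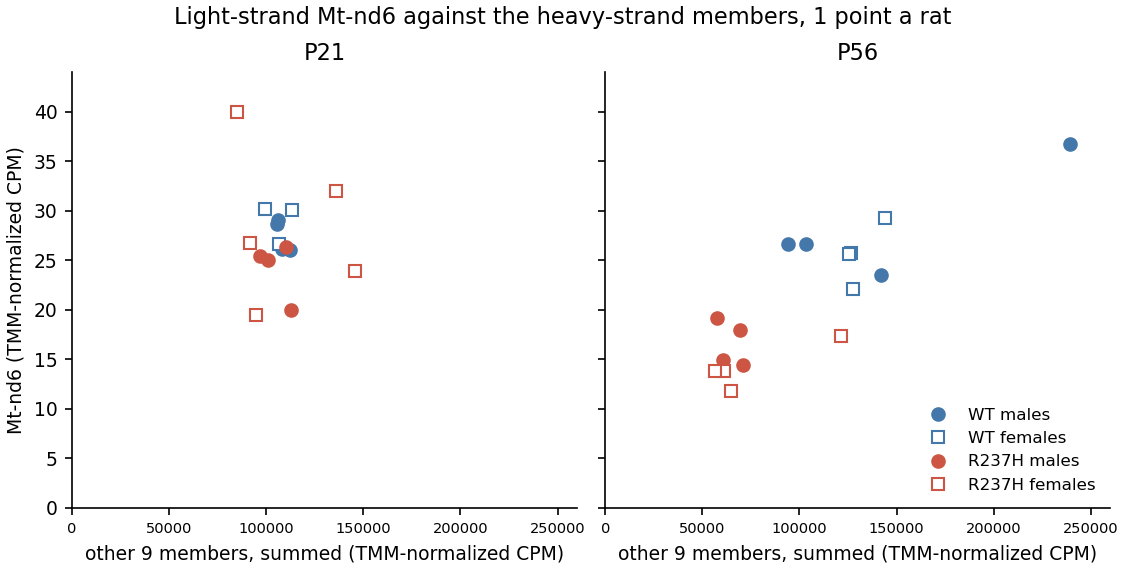
Mt-nd6 (y axis, CPM) against the sum of the other 9 members (x axis, TMM-normalized CPM), with 1 point a rat, at P21 (left) and P56 (right), R237H in red and WT in blue. At P56 the R237H rats lie lower on the y axis (11.8 to 19.2 against 22.1 to 36.7) with WT male 3 far to the right, and within a genotype no slope is clear.

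Ratios of neighbouring members, meaning members that follow each other in gene order whether or not a gene not analysed here lies between them, do not depend on library size and were compared between the genotypes for 9 pairs at 2 ages. None of the 18 passed after Benjamini-Hochberg adjustment of exact two-sided permutation tests with genotype labels permuted within sex. The smallest p was for Mt-nd4 over Mt-nd5 at P56, where the log2 ratio was 0.93 in R237H rats and 1.09 in WT rats (difference -0.16, exact permutation p = 0.0106, adjusted p = 0.191). At P56 the difference for this pair was -0.24 in males and -0.08 in females.

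The pairs that span the strands, Mt-nd5 over Mt-nd6 and Mt-nd6 over Mt-cyb, differed by -0.10 and 0.26 at P56 (exact permutation p = 0.612 and 0.167). Those on either side of Mt-nd3 differed by 0.06 (Mt-co3 over Mt-nd3, exact permutation p = 0.724) and 0.03 (Mt-nd3 over Mt-nd4, exact permutation p = 0.901). The largest difference at P56 was -0.29 for Mt-nd2 over Mt-co1 (exact permutation p = 0.0829), the step from a complex I gene to a complex IV gene.

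**Figure D5:**
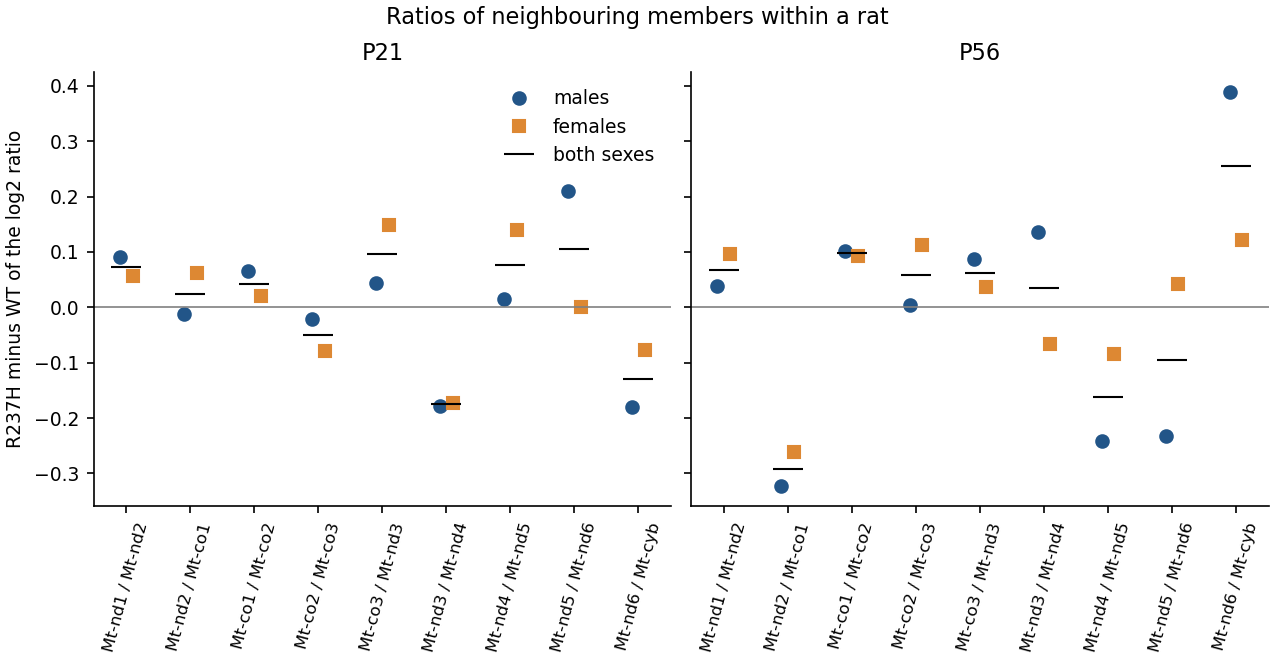
Difference between genotypes (R237H minus WT, y axis) of the within-rat log2 ratio of neighbouring members (x axis, in gene order), at P21 (left) and P56 (right), for males (circles), females (squares) and both sexes (bars). Differences for both sexes lie between -0.29 and 0.26 at P56 and between -0.18 and 0.11 at P21, and none of the 18 passed after adjustment.

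Genes other than the 10 members were ranked by likeness to the summed members, by Spearman correlation of deviations from group means over 32 rats. The most alike were ENSRNOG00000031979 (0.99) and ENSRNOG00000031053 (0.92), which have no symbol in the sources used here. They ranked 3 and 9 among all genes by TPM, within the ranks of the heavy-strand members. Whether they are themselves genes of mitochondrial DNA was not determined, since no coordinates were used. The next were ENSRNOG00000000611 (0.89), Syn1, which encodes the synaptic vesicle protein synapsin I (0.88), and ENSRNOG00000005290 (0.85), and of these only Syn1 had a symbol. The members themselves share one library with these genes, and the values are descriptions.

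Symbols of other genes came from the study's tables of tested genes sorted by change, and 30 of the 142 genes on the lists had an identifier, so the matched genes were selected for change and their counts are not a result on a list. For nuclear genes of complexes III and IV the 1 matched gene each was Uqcrh of complex III (log2 fold change -0.71 in both sexes at P56, FDR = 2.72e-07) and Cox7b of complex IV (-0.71, FDR = 8.09e-08). At P21 these stood at -0.20 (FDR = 0.0227) and -0.30 (FDR = 0.0115). Sirt3, a mitochondrial deacetylase, was the 1 matched regulator of biogenesis (-0.55 at P56, FDR = 2.77e-05), and Primpol, a primase and polymerase, the 1 matched gene of mitochondrial DNA maintenance (2.07, FDR = 9.58e-09). No gene on the lists of mitochondrial transcription, RNA processing or mitochondrial mass had an identifier.

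Markers of cell types moved along with the members at P56. Both matched neuron markers of 8 listed were lower in R237H rats at P56 with both sexes in one model. These were the filament gene Nefl (-0.94, FDR = 1.91e-07) and the nuclear marker Rbfox3 (-0.90, FDR = 0.000907). Among females alone at P56 Rbfox3 did not pass (-0.71, FDR = 0.0641). The summed level of both markers ranged from 270 to 376 CPM in R237H males and 516 to 770 in WT males. In females these sums ranged from 284 to 425 and from 484 to 723. At P21 Nefl was lower too (-0.31, FDR = 0.000295), and Rbfox3 stood at -0.08 (FDR = 0.737).

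All 7 microglia markers were higher at P56, with sums of 1031 to 1600 in R237H males against 218 to 304 in WT males and of 1086 to 1435 in R237H females against 229 to 282 in WT females, and all 7 were higher at P21, when the members did not pass. Of 5 matched astrocyte markers 2 were higher and 2 lower at each age over both sexes, with sums at P56 of 6783 to 9070 in R237H males, 2920 to 4207 in WT males, 7413 to 8622 in R237H females and 3106 to 3698 in WT females. Gfap, the mutated gene, made this difference in the sums, since without it the other 4 markers summed to 2082 to 2520 in R237H males, 2125 to 3528 in WT males, 1757 to 2956 in R237H females and 2369 to 2790 in WT females, with overlap. WT male 3 and R237H female 1 held the highest of these sums without Gfap in their groups, 3528 and 2956. At P56 the gap junction gene Gja1 (-1.21, FDR = 5.73e-07) and the calcium-binding protein gene S100b (-0.50, FDR = 0.00186) were the 2 that were lower. No endothelial marker had an identifier. The part of these cell types in the levels of the members was not tested.

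All 4 red blood cell markers were lower at P56 (sums of 19.1 to 38.0 in R237H males and 212 to 505 in WT males, 22.6 to 24.9 and 121 to 233 in females), and none passed at P21. R237H female 1, at 24.7, and WT male 3, at 212, were within or at the edge of their groups in this sum. Choroid plexus markers, 6 of 7 matched, were high in single dissections, at 1963 in WT male 2, 220 in R237H male 4 and 464 in R237H female 4 at P56. At P21, 3 of them were called lower in R237H rats over both sexes, where WT female 3 and WT male 1 held sums of 1145 and 333 and the other WT rats lay between 3.49 and 5.00, beside 3.39 to 50.3 in R237H rats. Apart from these 2 WT dissections the genotypes overlapped at P21. WT male 3 and R237H female 1 held 2.63 and 5.88 at P56, close to the lowest values of their groups.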

How the data were processed

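The authors extracted RNA from dissected hippocampus, prepared stranded poly(A) libraries and sequenced them in pairs. Per the methods, base calling used Bcl2fastq 2.20.0.422, trimming Skewer, alignment STAR and quantification RSEM; the genome build, annotation and strand setting were not given in the sources used here. The authors deposited RSEM expected counts per gene, not normalized, and a table of TPM values, which are scaled per transcript length and library size.

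Expected counts (5.68% of them not whole) were rounded to whole numbers. The test was the quasi-likelihood F-test of edgeR 4.0.16 (R 4.3.3) over all genes that passed filterByExpr, with TMM factors and Benjamini-Hochberg FDR under 0.01, within sex and age, with sex as a term, and for genotype by age or sex. SEs were derived as the absolute log2 fold change over the root of F. CPM values use TMM factors over 32 rats. Effective lengths are count over TPM, relative to Mt-co1. Ratios and correlations used exact permutation tests in Python 3.11.15 with scipy 1.17.1. Tests were checked on simulated counts. Alternatives were RLE factors, library size without the members, no filter, DESeq2 1.42.0, the likelihood-ratio test, FDR under 0.05, limma 3.58.1 on log2(TPM + 0.1), the title number as a block, all 32 rats in one model and each rat left out.

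All 10 members are named, with Gfap, at most 3 genes of each list by FDR in both sexes at P56 and the 5 genes most like the summed members; some genes of the lists are not reported here. The members and lists were chosen with earlier results of these data known. The labels place 5 R237H and 3 WT females at P21. No sequences of mitochondrial genes were used.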

Additional observations from a re-analysis of the deposited data

Results flagged for a closer look

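R237H female 1 at P56 stood apart from the other 3 rats of its group in the share of the library held by the members (11.98% against 6.09% to 6.97%) and in the CPM of Mt-nd2 (16070 against 5345 to 6937), Mt-co1 (34680 against 18390 to 20760), Mt-nd4 (14240 against 5152 to 5949) and Mt-nd5 (6928 against 2944 to 3096). WT female 2 at P56 was high in Mt-nd4 (16010 against 12420 to 12720), and R237H male 2 at P56 was low in Mt-nd3 (526.4 against 570 to 576). Of 77 groups of values examined 7 held such a rat, where chance gives about 1 in 20, and values of 1 rat are not independent.

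The genotype effect differed between the ages in 9 members by a test of the difference itself in edgeR, P56 minus P21 on the log2 scale: -1.15 for Mt-nd1, -1.17 for Mt-nd2, -0.93 for Mt-nd3, -1.17 for Mt-nd4, -0.71 for Mt-nd6, -0.81 for Mt-co1, -0.85 for Mt-co2, -0.96 for Mt-co3 and -1.09 for Mt-cyb. Causes were not tested.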

How the results depend on the processing

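Every alternative run left the 10 members lower in R237H rats at P56 and none called at P21. With limma on log2(TPM + 0.1) the members called were 0 in males at P56, 1 in females at P56, 10 in both sexes at P56 and 4 for genotype by age. That scaling moved the median of all genes to 0.40, 0.26, 0.33 and 0.36 on the log2 scale, and the medians of the members were -0.57, -0.62, -0.61 and -0.53. Leaving out 1 rat gave 2 to 10 members called in males at P56, 4 to 10 in females at P56 (10 without R237H female 1), 10 in both sexes at P56 and 8 to 10 for genotype by age. As a share of TPM the members differed, R237H minus WT, by -8.01 percentage points (P56 females) and -1.02 (P21 males), against -4.56 and -0.14 as a share of counts. The strand correlation at P56 became -0.26 in WT and -0.22 in R237H rats in TPM, and the cause was not tested. No ratio of neighbours passed under any alternative.

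The number in a rat's title is not explained in the labels. With it as a replicate block, 5 members were called in males and 1 in females at P56, and 10 in both sexes at P56. At P21 the block gave 0 in females and 0 in both sexes. It was not run within males at P21, who all carry the same number. The block fit of P56 females left only 1 residual degree of freedom. Same-numbered rats of opposite genotype had correlations of deviations between -0.05 and 0.28 (P56 males) and from 0.08 to 0.53 (P56 females), and 2 of 8 and 2 of 4 such rats correlated best with their own number. In females at P21 these values lay between 0.01 and 0.46, and 3 of 5 rats correlated best with their own number. The mean was 0.30 in P56 females and 0.19 in P21 females, against -0.04 for different numbers in both. Since each comparison held a pair at or under 0.1, the numbers were not taken as pairs.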
